A study of Mus musculus with 4 samples.

Results

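Chromatin accessibility was measured by ATAC-seq, which marks open DNA by transposase cutting, in pachytene spermatocytes isolated from mouse testis. The cells were exposed to 2.5 µM BMH-21 for 12 h or to DMSO alone (mock), with 2 libraries per group, called biological replicates by the submitters. BMH-21 is a DNA-intercalating small molecule that blocks RNA polymerase I, the enzyme that makes pre-rRNA. Mouse strain, age and whether replicates came from separate animals are not given in the sources used here, so p-values measure the spread between these libraries, which may be partly technical. The regions described are the open regions of autosomal gene deserts. They were found by merging the 4 peak lists into 155908 regions and keeping those on chromosomes 1 to 19 whose midpoint lay more than 100 kb from every protein-coding gene of the GRCm38.p6 annotation. This gave 9208 desert regions, of 127091 autosomal regions. Their coordinates are mm10.

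A gene desert is a long stretch without protein-coding genes. Many such stretches flank regulators of development and genes of neurons, and they hold enhancers that act over long distances. They also hold genes for long non-coding RNAs (lncRNAs), which are transcribed but encode no protein, and the testis is known for expressing many of these. In ATAC-seq an enhancer and the start of a transcript both appear as a short open region. Pachytene is the stage of meiosis at which the autosomes are fully paired, and these cells have an open chromatin landscape of their own.

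The 4 lists held 109230 and 117905 peaks in the mock and 51234 and 55459 in the BMH-21 libraries. Read totals are not given in the sources used here. Of 10 marker genes of pachytene spermatocytes, 10, 10, 10 and 9 had a peak at a gene end (1 kb either way) in mock replicates 1 and 2 and BMH-21 replicates 1 and 2. Markers of other testis cells were seen in part. For 5 leukocyte genes the counts were 4, 4, 1 and 1, for 5 genes of spermatogonia 4, 4, 2 and 3, and for 4 genes of spermatids 2, 2, 0 and 0. For 6 Sertoli cell genes they were 4, 4, 5 and 4, and for 7 genes of Leydig and peritubular cells 4, 4, 3 and 3. The part of such cells in the results below was not tested.

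Sequences are shown for starts of lncRNA genes, because regions there behaved unlike the other desert regions (given in full further on). RefSeq start windows (GRCm38.p6, 250 bases before to 50 after the annotated start) are printed for the pair with the highest fold in each of 3 classes. A region is called mock-only if both mock and no BMH-21 libraries held it, and BMH-21-only in the reverse case. Each sequence runs 5′ to 3′ on the gene's strand, and capitals mark CpG dinucleotides, the letters that are dense at many promoters.
2600014E21Rik: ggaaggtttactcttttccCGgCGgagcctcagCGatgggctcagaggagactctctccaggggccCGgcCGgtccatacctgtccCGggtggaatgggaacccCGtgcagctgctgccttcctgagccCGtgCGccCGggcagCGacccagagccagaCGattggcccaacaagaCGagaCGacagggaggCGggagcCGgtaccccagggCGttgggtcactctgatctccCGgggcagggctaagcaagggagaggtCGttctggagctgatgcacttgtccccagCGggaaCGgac
2410018L13Rik: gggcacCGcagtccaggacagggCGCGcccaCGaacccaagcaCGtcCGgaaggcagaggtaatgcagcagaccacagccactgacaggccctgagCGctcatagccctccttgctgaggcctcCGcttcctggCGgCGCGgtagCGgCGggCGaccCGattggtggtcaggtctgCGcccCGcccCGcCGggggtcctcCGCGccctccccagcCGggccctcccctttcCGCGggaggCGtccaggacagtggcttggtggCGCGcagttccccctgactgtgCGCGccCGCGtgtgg
4930570E01Rik: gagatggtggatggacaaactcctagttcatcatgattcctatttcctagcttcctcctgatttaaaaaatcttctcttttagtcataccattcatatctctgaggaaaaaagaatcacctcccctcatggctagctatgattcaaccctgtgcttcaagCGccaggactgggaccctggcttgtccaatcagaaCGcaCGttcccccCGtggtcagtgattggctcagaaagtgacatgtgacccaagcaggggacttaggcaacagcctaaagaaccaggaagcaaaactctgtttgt
4930595L18Rik: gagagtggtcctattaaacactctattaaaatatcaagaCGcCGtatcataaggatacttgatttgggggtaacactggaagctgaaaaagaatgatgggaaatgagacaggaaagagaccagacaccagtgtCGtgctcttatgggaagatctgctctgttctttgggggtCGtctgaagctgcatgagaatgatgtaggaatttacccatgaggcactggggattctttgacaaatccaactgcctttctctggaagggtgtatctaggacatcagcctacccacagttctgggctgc
5730522E02Rik: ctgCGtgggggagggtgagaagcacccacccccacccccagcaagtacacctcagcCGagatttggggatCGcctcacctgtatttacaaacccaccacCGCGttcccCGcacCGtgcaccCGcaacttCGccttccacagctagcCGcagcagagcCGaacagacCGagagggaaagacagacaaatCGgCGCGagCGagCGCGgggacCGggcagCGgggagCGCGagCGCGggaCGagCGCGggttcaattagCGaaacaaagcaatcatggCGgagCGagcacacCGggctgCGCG
Gm31676: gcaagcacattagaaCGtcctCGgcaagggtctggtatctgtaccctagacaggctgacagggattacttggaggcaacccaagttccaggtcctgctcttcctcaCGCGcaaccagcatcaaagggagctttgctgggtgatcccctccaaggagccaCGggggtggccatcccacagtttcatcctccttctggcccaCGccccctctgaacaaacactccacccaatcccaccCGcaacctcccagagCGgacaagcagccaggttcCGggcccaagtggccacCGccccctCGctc

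The first 2 windows lay in mock-only regions. 2600014E21Rik starts on the plus strand at chr2:75137405-75137704, a window with 21 CpG, and the authors' fold of its region was 11.5 and 12.4 in the mock lists. The window of 2410018L13Rik on the minus strand at chr12:23010194-23010493 had 31 CpG, and its region had a fold of 9.72 and 12.0 in the mock lists. The fold is a peak's height over its local background, is the authors' own value, and serves here only to describe or rank peaks within a list. The next pair lay in BMH-21-only regions. The window of 4930570E01Rik, at chr7:137653984-137654283 on the minus strand, had 4 CpG and a region fold of 12.0 and 9.78 in the BMH-21 lists. The window of 4930595L18Rik, at chr6:98552055-98552354 on the minus strand, had 4 CpG and a region fold of 9.53 and 11.5. The last pair lay in regions of all 4 libraries. 5730522E02Rik, in the desert between Bcl11a and Fancl, starts at chr11:26210527-26210826 on the minus strand with 33 CpG, and its region had a fold of 12.2 and 14.1 in the mock and 14.2 and 13.7 in the BMH-21 lists. Gm31676 starts at chr12:21543477-21543776 on the minus strand with 11 CpG, and its region had a fold of 14.2 and 16.9 in the mock and 9.58 and 10.2 in the BMH-21 lists. The printed pairs do not stand for their classes in CpG number. The median was 4.5 CpG in mock-only and 5 in BMH-21-only windows, and 31 was the highest mock-only count. The mock-only windows next in fold, of 4930553C11Rik and 1700057H15Rik, had 3 and 6 CpG.

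The first comparison asks how many desert peaks were called with and without the inhibitor. Desert peaks were far fewer in the BMH-21 libraries, and they made up a smaller share of the autosomal peaks. The mock lists held 5753 and 6610 desert peaks and the BMH-21 lists 1510 and 1747. The BMH-21 mean of 1629 ± 168 was 0.263 times the mock mean of 6182 ± 606 (SD, n = 2 each). Same-numbered libraries gave ratios of 0.262 and 0.264. Deserts held 6.38% (exact Clopper-Pearson 95% interval 6.22 to 6.54) and 6.79% (6.64 to 6.95) of autosomal peaks in the mock lists. In the BMH-21 lists they held 4.33% (4.12 to 4.55) and 4.59% (4.38 to 4.80). Both BMH-21 values lay below both mock values in each measure, with p = 0.33 in a two-sided exact permutation test of the group labels, the smallest value possible for 2 libraries against 2. All intervals given cover only counting error. With all lists limited to the length of the shortest, strongest peaks first, the ratio of desert peak numbers was 0.802 and the difference in the share of autosomal peaks (BMH-21 minus mock) was -0.35 percentage points, against -2.13 points with the full lists.

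**Figure D1:**
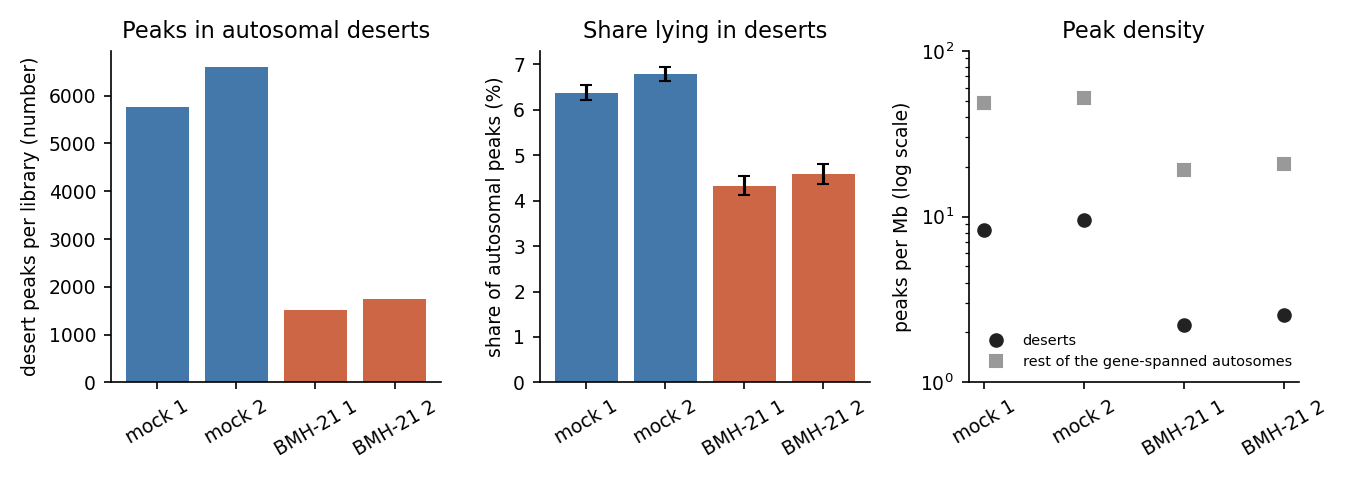
Desert peaks in each library: their number (left), their share of the library's autosomal peaks with exact 95% intervals (middle), and peaks per Mb in deserts and in the rest of the autosomes between the first and last gene on a log scale (right). Mock libraries are blue and BMH-21 libraries orange in the bars, and both BMH-21 libraries lie below both mock libraries in every panel.

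Deserts covered 680 Mb, or 28.0% of the autosomal span between the first and the last gene of each chromosome. Gene positions were taken as annotated, and unsequenced stretches were not taken out. The stretch of 2970 kb from LOC102636558 to Xkr4 at chr1:229390-3199732 is thus included. The deserts carried 8.34 and 9.57 peaks per Mb in the mock and 2.20 and 2.55 in the BMH-21 libraries. Over the rest of the span there were 48.2 and 51.8 in the mock and 19.1 and 20.8 in the BMH-21 libraries. Desert peaks covered 2145 and 2462 kb in the mock and 646 and 692 kb in the BMH-21 libraries. Density was also lower the longer the desert. Deserts of 200 to 400 kb held 17.5 and 19.7 regions per Mb in the mock and 5.88 and 6.73 in the BMH-21 libraries, while those over 2 Mb held 4.97 and 5.98 in the mock and 0.698 and 0.740 in the BMH-21 libraries.

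Presence per library split the desert regions into classes. Both mock libraries held 4070 of them, and 3435 of these were absent from both BMH-21 libraries, so 84.4% (83.2 to 85.5) were mock-only, against 63.7% of all autosomal regions held by both mock libraries. Both BMH-21 libraries held 1172 desert regions, of which 536, or 45.7% (42.9 to 48.6), were BMH-21-only, against 19.5% of all autosomal regions that both of these libraries held. All 4 libraries held 479 desert regions. A further 4350 were held by a single library, of which 1486 by mock replicate 1, 2294 by mock replicate 2, 214 by BMH-21 replicate 1 and 356 by BMH-21 replicate 2. Deserts thus had a higher share than the autosomes as a whole in both directions. In number the mock-only desert regions were 6.41 times the BMH-21-only ones. This ratio was 8.50 for autosomal regions outside deserts, and 5.15 for intergenic regions within 100 kb of a protein-coding gene. It also depends on list length. With all lists cut to the length of the shortest, the desert counts behind it were 965 and 740.

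Autosomal regions outside deserts were mock-only in 62.4% (62.0 to 62.8) and BMH-21-only in 18.3% (17.8 to 18.8). Intergenic regions within 100 kb of a protein-coding gene, which share the lack of gene bodies, were mock-only in 66.9% and BMH-21-only in 29.9%. The differences in the mock-only share were 22.0 percentage points against all other autosomal regions and 17.5 points against the intergenic ones. Regions are not replicates, so the same difference was taken in each pair of a mock and a BMH-21 library. The share of a mock library's regions that the BMH-21 library lacked was 88.3 to 90% in deserts and 71.3 to 73.5% elsewhere, a difference of 16.4 to 17.2 points in the 4 pairs, which share libraries. Within the mock group, the share of replicate 1's regions that replicate 2 lacked was 28.0% in deserts and 20.1% elsewhere, and the reverse share was 37.5 and 25.7%. Within the BMH-21 group the shares were 20.8 and 18.1%, and 30.4 and 23.2% in reverse. Desert regions were therefore the less repeatable ones within each group too, by 2.68 to 11.8 points, and the difference between the groups was larger than this.

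On every chromosome, 19 of 19, both shares were higher in deserts than in the other regions of that chromosome. The mock-only share of desert regions ran from 77.5% on chromosome 17 to 89.6% on chromosome 3. The BMH-21-only share ran from 30.6% on chromosome 12 to 60.0% on chromosome 9.

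The shares followed the distance to genes. The mock-only share was 31.3% for regions outside but less than 1 kb from a protein-coding gene, and 60.6% inside genes. It was 69.5% at 1 to 10 kb, 72.5% at 10 to 50 kb and 74.95% at 50 to 100 kb. Within deserts it was 81.5% (79.7 to 83.3) at 100 to 200 kb, 86.4% (84.6 to 88.1) at 200 to 500 kb, 86.5% (83.2 to 89.4) at 500 kb to 1 Mb and 90.3% (85.5 to 93.9) beyond 1 Mb, where 195 of 216 regions were mock-only. The BMH-21-only share was higher with distance only as far as 500 kb. It was 46.0% (42.1 to 50.0) at 100 to 200 kb and 50.3% (45.5 to 55.2) at 200 to 500 kb, but 26.7% (17.8 to 37.4) at 500 kb to 1 Mb and 24.0% (9.36 to 45.1) beyond 1 Mb, where only 25 regions were held by both BMH-21 libraries. Regions just inside the limit, at 100 to 110 kb, were mock-only in 81.3% and BMH-21-only in 44.0%, and those just outside it, at 90 to 100 kb, in 76.3 and 43.6%.

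**Figure D2:**
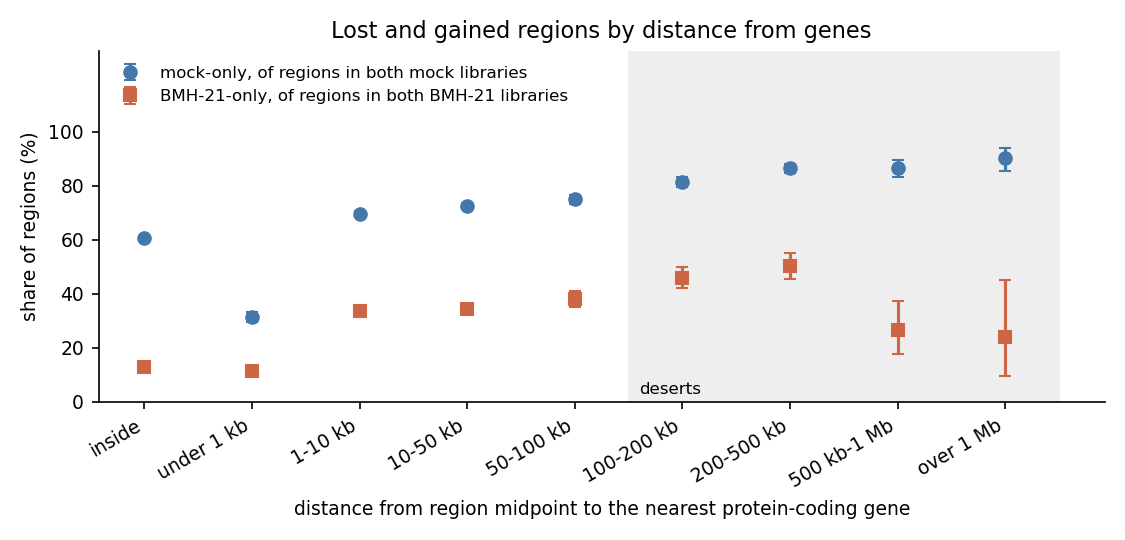
Share of autosomal regions called mock-only (blue circles) and BMH-21-only (orange squares) by distance to the nearest protein-coding gene, with exact 95% intervals; the grey area marks desert regions. The mock-only share is lowest at 31.3% within 1 kb of a gene and highest at 90.3% beyond 1 Mb, while the BMH-21-only share peaks at 50.3% between 200 and 500 kb.

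Weak peaks were more often mock-only, so deserts were compared with other autosomal regions of the same strength. Strength was taken as the percentile of a region's fold, averaged over both mock lists and cut into 10 classes. In the weakest class 90.5% of desert regions and 84.4% of other regions were mock-only. In the strongest class the values were 58.4% (51.8 to 64.9), or 135 of 231, and 11.8% (11.1 to 12.6). Desert regions were higher in each of the 10 classes, by 5.90 to 46.6 points. Over all classes the observed share exceeded that expected from the other regions of the same strength by 22.7 points, or by 10.3 points when strength was ranked by the deposited −log10 q in place of the fold. The BMH-21-only share was 45.7% against 18.8% expected from regions of the same strength in the BMH-21 lists.

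**Figure D3:**
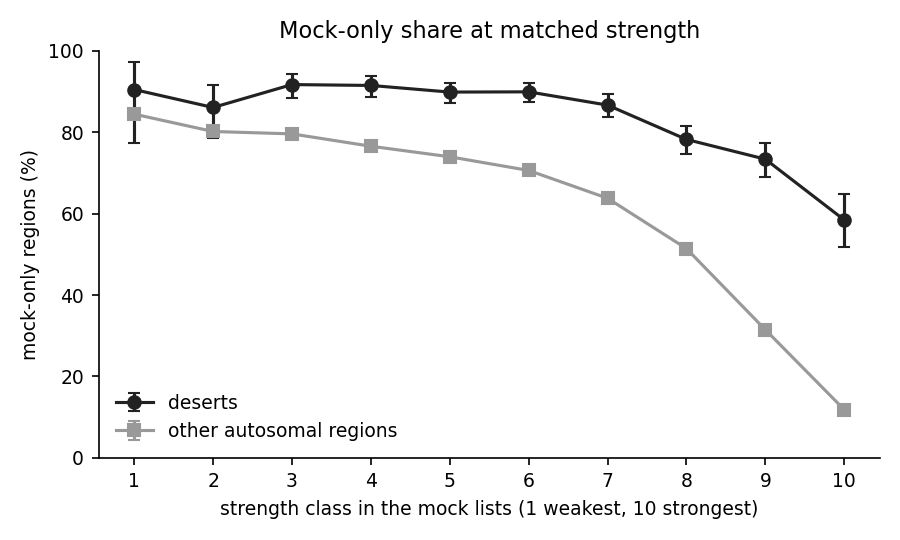
Share of regions held by both mock libraries that no BMH-21 library held, by strength class in the mock lists, for deserts (black) and other autosomal regions (grey), with exact 95% intervals. The values are 90.5 and 84.4% in the weakest class and part to 58.4 and 11.8% in the strongest.

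Desert peaks were short. The median width was 299 and 302 bp in the mock and 327 and 301 bp in the BMH-21 libraries, so the groups overlapped (exact permutation p = 0.67, two-sided). Peaks elsewhere on the autosomes were wider, at 370 and 359 bp in the mock and 462 and 410 bp in the BMH-21 libraries. The median fold of desert peaks was 4.51 and 4.52 in the mock lists, above the 4.15 and 4.19 of other autosomal peaks of the same lists. In the BMH-21 lists it was 5.13 and 5.28, beside 5.13 and 5.23 for the other peaks. By the deposited −log10 q, desert peaks were the weaker ones in each list. The medians were 8.76 and 8.53 in the mock lists, against 10.7 and 10.5 for the other peaks. In the BMH-21 lists they were 11.5 and 11.5, against 15.8 and 15.0. Among merged regions, the median width was 402 bp for mock-only, 360.5 bp for BMH-21-only and 718 bp for all-library regions, and 242 bp for those of a single library. A merged region spans the peaks of all libraries that hold it, so regions of more libraries are wider in part by construction, and the shares by width are a description. In desert regions of 200 to 300 bp the mock-only share was 96.4% and the BMH-21-only share 87.6%. Other autosomal regions of that width had 93.9 and 78.3%. In desert regions of at least 1000 bp these shares were 56.8 and 8.46%, against 18.1 and 0.691% in the other regions. Higher shares in narrow regions were thus not particular to deserts. With lists of equal length the direction of the width difference turned, and the BMH-21 minus mock difference of the median widths was -108.5 bp.

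Spacing was measured from each desert peak to the next peak of the same library at higher coordinates. The median gap was 38.0 and 34.4 kb in the mock and 70.2 and 62.2 kb in the BMH-21 libraries, a ratio of 1.83 with groups that did not overlap (exact permutation p = 0.33, two-sided). Outside deserts it was 7.04 and 6.87 kb in the mock and 19.0 and 17.5 kb in the BMH-21 libraries. The next peak lay within 10 kb for 27.6 and 28.7% of desert peaks in the mock and 17.1 and 19.7% in the BMH-21 libraries. Gaps over 1 Mb followed 0.4001 and 0.272% of desert peaks in the mock and 5.97 and 5.45% in the BMH-21 libraries. This measure depends on how many peaks a list holds, and with lists of equal length the ratio turned to 0.603.

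**Figure D4:**
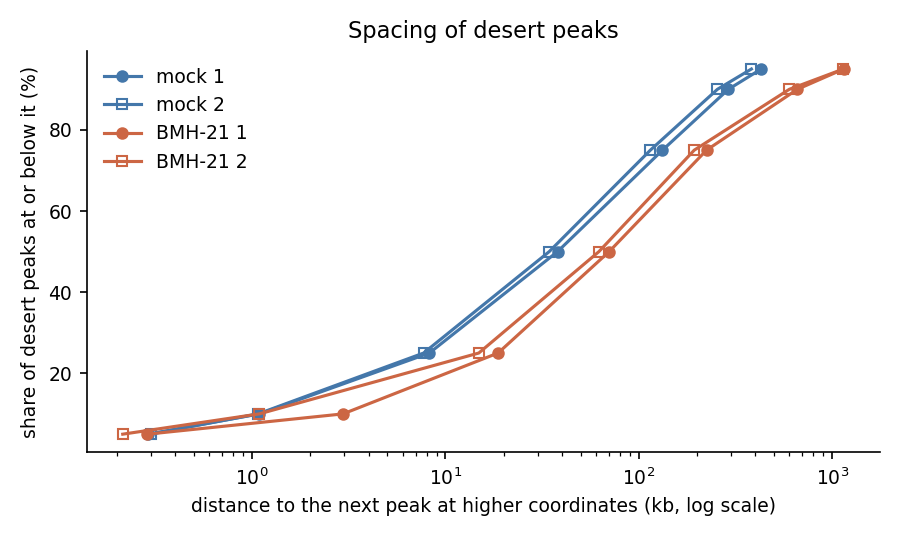
Distance from a desert peak to the next peak at higher coordinates in each library, drawn through quantiles from 5 to 95% on a log axis, with mock libraries in blue and BMH-21 libraries in orange. Median gaps are 38.0 and 34.4 kb in mock and 70.2 and 62.2 kb in BMH-21 libraries.

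Desert regions of the same class lay farther apart than those elsewhere on the autosomes. The median distance from a mock-only desert region to the nearest other mock-only region was 30.5 kb, and 30.5% had one within 10 kb, against 6.07 kb and 63.9% outside deserts. For BMH-21-only regions the median was 81.8 kb and 13.4% had one within 10 kb, against 60.3 kb and 14.6% outside. For all-library regions the median was 122 kb in deserts and 17.2 kb outside. The mock-only share of desert regions was highest for the most isolated ones. It was 83.7% (80.6 to 86.4) where the nearest region held by both mock libraries lay under 2 kb away, 80.0% (77.0 to 82.7) at 2 to 10 kb, 82.1% (79.8 to 84.2) at 10 to 50 kb, 88.6% (86.5 to 90.5) at 50 to 200 kb and 91.3% (87.9 to 94.1) over 200 kb. Outside deserts the values were 71.3, 60.0, 54.6, 60.6 and 76.1% in the same order. There too the share was highest over 200 kb.

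Between pairs of protein-coding genes there were 1393 deserts, with a median length of 424 kb between the genes, and 115 regions lay before the first or after the last gene of a chromosome. Of these deserts 1101 held a region, with a median of 5. A peak was called in 1011 and 1046 deserts in the mock and in 556 and 604 in the BMH-21 libraries, a ratio of 0.564 (exact permutation p = 0.33, two-sided). Of the 929 deserts with a region in both mock libraries, 369 had none in any BMH-21 library. Of the 507 with a region in both BMH-21 libraries, 14 had none in any mock library. Among the 280 deserts with at least 5 regions held by both mock libraries, all of those regions were mock-only in 89. Deserts with both kinds of change were common as well: 251 held a mock-only and a BMH-21-only region.

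The longest desert lay between the protocadherin genes Pcdh20 and Pcdh9, whose products are adhesion proteins of neurons, at chr14:88471397-93013699. It held 25 and 28 regions in the mock and 3 in each BMH-21 library, and 16 of its 19 regions held by both mock libraries were mock-only, a share close to the 84.4% of all desert regions. The desert next in length, from Celf4 to Pik3c3, held 21 and 22 regions in the mock and 4 and 9 in the BMH-21 libraries, and 2 of its 4 regions in both BMH-21 libraries were BMH-21-only. The desert between Cntnap5b and Cdh20, at chr1:100490600-104768339, had 9 and 12 regions in the mock and 0 and 1 in the BMH-21 libraries. That between Tenm3 and Aga, at chr8:49522825-53511682, had 15 and 17 in the mock and 1 and 0 in the BMH-21 libraries. In each of these 4 long deserts both BMH-21 libraries held fewer regions than either mock library. The same was true from Olfm4 to Pcdh17, also among the 5 longest, where mock counts were 23 and 27 against 4 and 3. Its frequency over all deserts was not counted. Desert peaks as a whole fell to 0.263 times the mock mean, so this does not set the long deserts apart. The desert with the most regions was shorter. Between Nphp4, a gene of the cilium, and Ajap1, at chr4:152563185-153373220, there were 96 regions, with 58 and 55 in the mock and 20 and 24 in the BMH-21 libraries. Of its 17 regions in both BMH-21 libraries 12 were BMH-21-only. The desert between Mn1 and Cryba4, the latter a crystallin gene of the eye lens, at chr5:111457031-112246491, was alike, with 41 and 55 regions in the mock and 20 and 27 in the BMH-21 libraries, and again 12 of 17 regions of both BMH-21 libraries were BMH-21-only.

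Genes at the edges of deserts were grouped by 2 lists. Of the deserts, 83 had an edge gene from a list of developmental transcription factors. Their regions were mock-only in 292 of 363, or 80.4% (76.0 to 84.4), and BMH-21-only in 69 of 137, or 50.4% (41.7 to 59.0). Another 97 had an edge gene from a list of adhesion and synapse genes, with 453 of 515 mock-only, or 88.0% (84.8 to 90.6), and 39 of 105 BMH-21-only, or 37.1% (27.9 to 47.1). Over all deserts the shares were 84.3 and 46.0%, so only the mock-only share of the second list had an interval that left out the value of all deserts. The deserts of the second list were also longer, with 143 Mb in 97 against 55.5 Mb in 83. Over all deserts, the mock-only share was 80.9% in those of 200 to 400 kb and 87.2% in those over 2 Mb. The part of desert length in the value of the second list was not tested. The desert beside Sox2, a transcription factor of stem cells and the nervous system, at chr3:34652462-35754043, held 44 and 52 regions in the mock and 7 and 5 in the BMH-21 libraries. Beside Myc, a regulator of growth, the desert at chr15:61990362-63775970 held 44 and 54 in the mock and 9 and 8 in the BMH-21 libraries. Beside Tbx3, a T-box factor of limb and heart development, the numbers of regions were alike in the groups, but most regions were not the same ones. The desert from Med13l to Tbx3 at chr5:118765439-119670533 held 15 and 19 regions in the mock and 14 and 19 in the BMH-21 libraries, so the groups overlapped. Of its 13 regions held by both mock libraries 10 were mock-only, and of its 11 held by both BMH-21 libraries 6 were BMH-21-only. Beside the 84.3 and 46.0% of all deserts, and with so few regions, these shares do not set this desert apart. The desert from Hnf4g to Zfhx4, both transcription factor genes, at chr3:3659801-5218217, held 19 and 22 regions in the mock and 0 in both BMH-21 libraries. Of the adhesion genes, the desert between the cadherin genes Cdh11 and Cdh5 at chr8:102785494-104101612 held 33 and 30 regions in the mock and 3 in each BMH-21 library. The desert from Cntn5, which encodes a contactin of neurons, to Jrkl at chr9:10904776-13242789 held 29 and 40 in the mock and 4 in each BMH-21 library.

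The strongest regions of each class show that absence in the other group was not limited to weak peaks. The mock-only region of highest fold, at chr16:65255925-65256638 between the serotonin receptor gene Htr1f and Pou1f1, a pituitary transcription factor gene, had a fold of 16.5 and 14.6. It stood at the 99.98 and 99.79 percentile of the mock lists and had no peak in the BMH-21 lists. The region at chr12:51024063-51024774, inside the lncRNA gene 1700008C04Rik between Prkd1 and G2e3, had a fold of 14.0 and 15.9 in the mock lists alone. A separate region at the start of this gene was BMH-21-only, with a fold of 5.50 and 5.28 in the BMH-21 lists. The region at chr15:13383138-13383964 between Cdh6 and Cdh9, cadherin genes, had a fold of 12.8 and 12.9 in the mock lists alone. In the other direction, the region at chr13:47423566-47423946 had a fold of 13.6 and 14.9 in the BMH-21 lists and no mock peak. It lay 176 kb from Rnf144b and 837 kb from Id4, the genes at the edges of its desert. The region at chr12:29290717-29291416, before the neuronal factor gene Myt1l, reached 12.0 and 14.3 in the BMH-21 lists alone.

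Of the regions held by all 4 libraries, the one at chr3:5860269-5860910 between the peroxisome gene Pex2 and 1700008P02Rik was the strongest, with a fold of 21.9 and 24.0 in the mock and 20.9 and 22.6 in the BMH-21 lists. These are the highest folds of any desert peak in each of the 4 lists, and no annotated gene lies at it. Of the regions held by both libraries of a group, the one farthest from any protein-coding gene lay 2231.6 kb away in the Pcdh20 to Pcdh9 desert at chr14:90702704-90703283. All 4 libraries held it, with a fold of 7.94 and 10.4 in the mock and 10.8 and 11.1 in the BMH-21 lists. A neighbouring region at chr14:90697805-90698157 was mock-only with a fold of 5.78 and 6.02.

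Of the annotated features, the starts of lncRNA genes stood apart from the other desert regions. At lncRNA starts, taken as overlap with the RefSeq start window, the BMH-21 libraries did not have fewer regions than the mock libraries, while all other desert regions together were far fewer. The mock libraries held 115 and 125 regions at lncRNA starts and the BMH-21 libraries 129 and 137. The BMH-21 mean of 133 ± 5.66 was 1.11 times the mock mean of 120 ± 7.07 (SD, n = 2 each, exact permutation p = 0.33, two-sided). The other desert regions numbered 5540 and 6392 in the mock and 1351 and 1548 in the BMH-21 libraries, a ratio of 0.243. Regions at lncRNA starts therefore made up 1.98 ± 0.0817% of desert regions in the mock and 8.42 ± 0.414% in the BMH-21 libraries (SD, n = 2 each, p = 0.33 in the exact permutation test). The groups did not overlap in any of these measures. The small excess at lncRNA starts was not stable. The ratio was 1.03 (p = 0.67, exact permutation) with a desert limit of 50 kb, 1.10 (p = 0.67) without mock replicate 1 and 1.06 (p = 0.67) without BMH-21 replicate 2, and 1.80 with lists of equal length. This class was chosen after its values were seen.

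Of the 109 lncRNA start regions held by both mock libraries, 39 or 35.8% (26.8 to 45.5) were mock-only, against 85.7% (84.6 to 86.8) of the other desert regions. The BMH-21-only share was closer to that of the other desert regions, at 46 of 119, or 38.7% (29.9 to 48.0), against 46.5% (43.5 to 49.6). With lists of equal length, 13 of 65 lncRNA start regions, or 20%, were mock-only. Of mock-only desert regions 1.14% lay at an lncRNA start, of BMH-21-only regions 8.58% and of all-library regions 13.2%. lncRNA start regions were wider and stronger than the rest. Their median width was 763 bp and their median fold 5.93 where both mock libraries held them, against 417 bp and 4.86 for the other desert regions. From other desert regions of the same strength class, 80.3% would be mock-only, against the 35.8% found. Within width classes the order was the same. At 600 to 1000 bp 10 of 37 lncRNA start regions, or 27.0% (13.8 to 44.1), were mock-only, against 74.5% (71.3 to 77.6) of the others. At 1000 bp or more the values were 4 of 30, or 13.3% (3.76 to 30.7), and 62.2% (55.8 to 68.4).

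**Figure D5:**
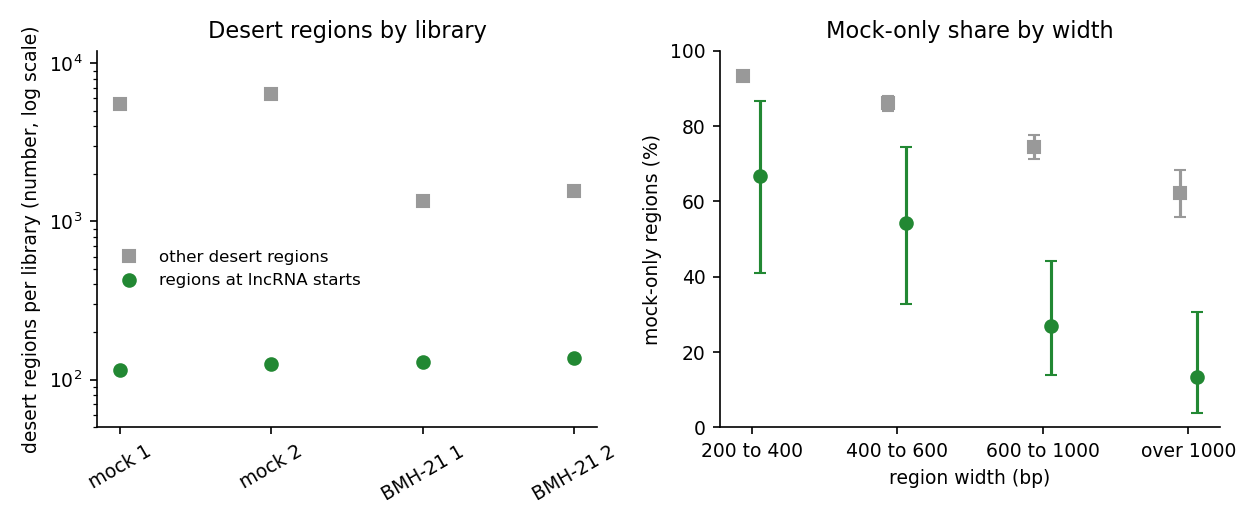
Left, number of desert regions in each library at lncRNA starts (green circles) and elsewhere (grey squares) on a log scale. Right, share of regions held by both mock libraries that were mock-only, by region width, with exact 95% intervals, where lncRNA start regions lie below the others in all 4 width classes.

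Regions elsewhere in deserts were more often mock-only than those at lncRNA starts. Those at other lncRNA gene ends were so in 65.6% (57.5 to 73.0), at pseudogene ends in 83.0% (74.8 to 89.5), at ends of other non-coding genes in 94.6% (86.7 to 98.5, 70 of 74), inside non-coding genes in 83.4% (80.0 to 86.4) and away from any annotated gene in 87.1% (85.8 to 88.2). The last group was by far the largest, with 6945 of the 9208 regions. lncRNA starts nearer to protein-coding genes, at 1 to 100 kb, were mock-only in 27.6% (24.0 to 31.5) and BMH-21-only in 20.9% (17.4 to 24.7). The mock-only value overlaps that of the desert starts, while the BMH-21-only value of the desert starts is the higher one.

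RefSeq start windows were at hand for 1704 lncRNA genes in deserts, of which 203 had a region of any library at a start. The windows with a region held more CpG than those without. The median was 4.5 CpG per 300 bases for mock-only, 5 for BMH-21-only and 8 for all-library starts, against 2 for the 1501 desert starts without a region, 4 for all autosomal lncRNA genes and 14 for protein-coding genes. At least 10 CpG were found in 8 of 40 mock-only, 8 of 49 BMH-21-only and 26 of 67 all-library windows. Median GC content was 54.8% in mock-only and 48.3% in BMH-21-only windows. Of motifs searched on both strands, the MYB-type core CAACNG was in 14 of 40 mock-only, 23 of 49 BMH-21-only and 34 of 67 all-library windows. It was in 29 of 51 windows of the remaining desert regions at starts, the highest share of these classes, and in 35.0% of all windows. CCAAT was in 11, 24, 31 and 19 of these windows, and in 37.4% of all windows. The TATA box core TATAAA was in 4, 11, 12 and 5 of them, and in 13.6% of all windows. In the 1501 desert windows without a region the shares were 35.8% for the MYB-type core, 39.4% for CCAAT and 20.3% for TATAAA. The motifs are matches of letters and not shown to be binding sites.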

How the data were processed

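The 4 ATAC-seq peak lists were used as deposited, 1 per library, so peaks were called per library. Per the submitters' processing notes the tools were fastp, Bowtie2, bedtools, deepTools and MACS2 2.1.0, and the builds mm39 and mm10. Coordinates were taken as mm10, since peaks reach beyond the end of chromosome 1 in mm39. Aligner settings, duplicate removal and any shift of read ends are not given in the sources used here. The deposited fold is a ratio of peak height to local background, the deposited −log10 p and −log10 q refer to 1 list, and the deposited score was not used. None is normalised between libraries, and a missing peak is one below the caller's threshold, not closed chromatin. How many cells open a region and how far each opens it cannot be told apart.

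Peaks were merged where they overlapped by at least 1 bp. Peaks and regions were placed by their midpoint against 20661 autosomal protein-coding genes (start to end) of the RefSeq GRCm38.p6 table, which gives no strand or transcripts. lncRNA starts were the RefSeq start windows, a table that is not complete. Immune receptor segments do not count as protein-coding there. Library values of the groups were compared by a two-sided exact permutation of the group labels, and shares have Clopper-Pearson 95% intervals. Named regions were the 8 of highest mean fold (for all-library regions, mean percentile) in each class and the 4 farthest from genes among regions held by both libraries of a group, and named deserts the 5 longest, the 5 with most regions and up to 6 per list of edge genes with most regions, of which the text gives a part. Printed windows were those of highest fold per class with an overlap of at least 100 bases. Members, lists and tests were chosen with earlier results of these data known, and the lncRNA class, motifs and name patterns after their values were seen. The procedure was tested on simulated lists. Python 3.11.15, numpy 2.4.6, pandas 2.3.3, scipy 1.17.1 and matplotlib 3.10.9 were used.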

Additional observations from a re-analysis of the deposited data

How the results depend on the processing

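The 13 results were recomputed under alternatives, which gave 154 values. Of these, 51 shares moved beyond their interval, 2 turned direction, and the others stayed on the same side. Both turned with lists of equal length: the difference in median width was -108.5 bp and the ratio of gaps 0.603. In that setting the mock-only and BMH-21-only shares of desert regions were 72.7 and 64.6%, the mock-only difference was 32.7 points from other autosomal, 24.1 from other intergenic and 34.4 at matched strength, the shares at lncRNA starts were 20% and 49.6%, and the ratio of lncRNA start regions was 1.80. In the order mock-only, BMH-21-only, and the same 3 differences, a desert limit of 50 kb gave 80.6%, 42.2%, 18.8, 15.0 and 19.2 points. A limit of 200 kb gave a mock-only share of 86.8% and differences of 23.9, 18.6 and 24.9 points. With all annotated genes as the limit the values were 91.1%, 40.6%, 27.6, 20.5 and 28.3 points, the peak number ratio 0.137, the ratio of deserts with a peak 0.210 and the difference in the share of autosomal peaks -0.73 points. No lncRNA start is left in that setting. Windows reaching 100 bp to each side of the summits gave a BMH-21-only share of 50.3% and differences of 17.1, 15.5 and 17.7 points. Presence in at least 1 library of the group gave shares of 89.1 and 55.5%. Strength by −log10 q gave a matched difference of 10.3 points. Of alternatives chosen after seeing the data, regions of 600 bp or more gave 68.3 and 22.2%, and leaving out lncRNA starts gave a mock-only share of 85.7%.

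Without each library in turn, where the single library left stands for its group, the mock-only share was 85.6 to 88.0%, the BMH-21-only share 50.7 to 54.0%, and the differences 17.9 to 20.3, 14.1 to 15.7 and 17.8 to 20.6 points. Without BMH-21 replicate 1 the width difference was 0.50 bp. With the replicate number as a block, same-numbered libraries gave a ratio of desert peak numbers of 0.263 (exact permutation within pairs, p = 0.50, the smallest possible). The labels do not say that a number marks a shared source. The deviations of same-numbered libraries had a correlation of -0.0079 over the desert regions. Regions held by a single library of each group were few (32, 24, 21 and 18 in the possible pairings). This value therefore cannot decide whether same-numbered libraries share a source. Since no p-value could be small with or without the block, the block could change no call. Read depth was not given, so what it limits cannot be stated.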

Other observations

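X-linked regions over 100 kb from protein-coding genes did not have the pattern of the autosomal ones. Of 5576 such regions held by both mock libraries, 994 or 17.8% (16.8 to 18.9) were mock-only, below the 24.3% (23.5 to 25.2) of other X-linked regions, and 12.8% were BMH-21-only, against 11.3%. On the autosomes deserts had the higher mock-only share and on X the lower one. The difference between X and the autosomes in this respect was not tested.

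The names of some lncRNA genes, such as 1700057H15Rik and 4930570E01Rik, belong to RIKEN clone series that go back to cDNA libraries made largely from testis. Such names made up 7.63% of all 9291 autosomal lncRNA genes with a start window. They made up 5 of 40 genes at mock-only desert starts, 16 of 49 at BMH-21-only starts, or 32.7% (19.9 to 47.5), and 19 of 67 at starts held by all 4 libraries, or 28.4% (18.01 to 40.7). Among the genes with all-library starts was Dubr, an lncRNA known from the differentiation of muscle cells, with a fold of 8.98 and 8.28 in the mock and 11.04 and 11.1 in the BMH-21 lists. Among the mock-only starts was Tunar, an lncRNA known from pluripotent cells and neurons, with a fold of 7.24 and 7.87. Both were picked after their values were seen.

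A set of 49 desert regions lay within 10 kb of immune receptor gene segments, of which 20 of 22 held by both mock libraries were mock-only, or 90.9% (70.8 to 98.9), an interval that includes the 84.4% of all desert regions. Near miRNA genes, within 1 kb, lay 14 desert regions, of which 7 of 8 held by both mock libraries were mock-only, or 87.5% (47.3 to 99.7), which includes it too.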
